A study of Homo sapiens with 8 samples.

Results

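Where histone H3 lysine 23 succinylation (H3K23su) and histone H3 lysine 27 acetylation (H3K27ac) were found apart, and where they were found together, was described in HCT15-FR cells. HCT15-FR is a 5-fluorouracil (5-FU)-resistant derivative, maintained in 20 μg/ml 5-FU, of HCT15, an established line from a human colorectal tumour. CUT&Tag, in which an antibody tethers a transposase so that the sequenced fragments mark where its antigen lies, had been run with 2 libraries per mark. Overlapping or touching peaks of these 4 lists were joined, which gave 122237 regions on hg19. A region in both H3K23su lists and in no H3K27ac list was called H3K23su-only, the reverse H3K27ac-only, and a region in all 4 lists both-mark. The H3K23su-only class held 4496 regions, which is 3.68% of all merged regions. The H3K27ac-only class held 8995 regions, or 7.36%, and the both-mark class 37172 regions, or 30.4%. The 8 lists of the whole series, merged in the same way, give 175569 regions.

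The resistant line was bought as 1 line, and the sample labels name the same 5-FU dose as the methods, which add that the cells spent 3 days without 5-FU before experiments. The parental HCT15-Pa libraries, 2 per mark, were treated with the solvent DMSO according to the labels and were not used to choose the regions. The labels number the replicates and do not say whether they were separate cultures, so the spread between replicates may be technical. Different antibodies were used for the 2 marks, and broad peak calling is stated for H3K27ac alone. The mark, the antibody and the way of calling peaks therefore cannot be told apart in any comparison of the classes. The lists give positions and a score, the −log10 of the p-value that MACS2 gave the authors, and no read depth. Where a list has no peak, a signal under the calling threshold cannot be told from none.

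Acetylation neutralises the positive charge of a lysine, and succinylation replaces it with a negative charge. H3K27ac is deposited mainly by the acetyltransferases p300 (EP300) and CBP (CREBBP) and is the standard mark of active promoters and enhancers. Histone succinylation draws on succinyl-CoA, an intermediate of the tricarboxylic acid cycle. At regulatory DNA, AP-1 is a dimer of FOS and JUN family proteins that binds many enhancers of epithelial and cancer cells, the GC box is bound by SP and KLF proteins at many promoters, HNF4 proteins are nuclear receptors of gut and liver epithelium, and CTCF is the zinc finger protein that marks insulators and the ends of chromatin loops.

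The sequences below are from hg19 chromosomes, plus strand, 5′ to 3′, and each is the 200 bases around the midpoint of a member. For each class 1 or 2 of the highest ranked members are shown that hold, outside exons, the motif whose share stood out most in the direction of that class. For both-mark regions this is the motif with the largest excess over the higher of the single-mark classes. The CTCF pair was chosen after the values were seen. Capitals mark the exact motif match on either strand, which is a match of letters and not a measured binding site. The H3K23su-only sequence lies in an intron of the lncRNA gene ENSG00000287938, with SSBP2 as the protein-coding gene of the nearest TSS (chr5:81116606-81116805).
H3K23su-only, HNF4, near SSBP2: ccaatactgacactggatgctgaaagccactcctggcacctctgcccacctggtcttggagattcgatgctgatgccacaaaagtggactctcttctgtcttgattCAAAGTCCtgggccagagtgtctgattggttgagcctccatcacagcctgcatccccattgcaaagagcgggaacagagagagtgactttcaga

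The H3K27ac-only sequence with AP-1 is intergenic, at chr3:954571-954770, with CNTN6 as the nearest protein-coding gene. It holds 3 AP-1 matches in a stretch that repeats in tandem.
H3K27ac-only, AP-1, near CNTN6: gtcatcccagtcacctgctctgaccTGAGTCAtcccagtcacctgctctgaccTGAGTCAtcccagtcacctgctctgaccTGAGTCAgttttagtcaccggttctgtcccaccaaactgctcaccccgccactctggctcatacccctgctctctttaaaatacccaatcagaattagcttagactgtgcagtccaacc

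The H3K27ac-only sequences with CTCF lie in intergenic DNA at chr1:149204351-149204550 and in a promoter of EIF4E3 at chr3:71779099-71779298.
H3K27ac-only, CTCF, chromosome 1: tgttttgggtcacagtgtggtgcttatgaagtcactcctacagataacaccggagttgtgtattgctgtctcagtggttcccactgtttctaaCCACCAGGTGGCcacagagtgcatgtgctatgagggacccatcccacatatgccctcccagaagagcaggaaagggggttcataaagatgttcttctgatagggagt
H3K27ac-only, CTCF, EIF4E3: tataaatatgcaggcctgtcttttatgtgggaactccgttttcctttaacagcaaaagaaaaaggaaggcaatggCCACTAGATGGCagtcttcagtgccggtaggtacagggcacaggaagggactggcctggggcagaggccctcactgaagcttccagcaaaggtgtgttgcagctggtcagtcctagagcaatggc

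The both-mark sequences with a GC box lie in an intron of the lncRNA genes LSP1P5 and RP11-14N7.2, with NBPF16 as the protein-coding gene of the nearest TSS (chr1:148930466-148930665), and in an intron of ZNF124 (chr1:247289970-247290169).
Both marks, GC box, LSP1P5: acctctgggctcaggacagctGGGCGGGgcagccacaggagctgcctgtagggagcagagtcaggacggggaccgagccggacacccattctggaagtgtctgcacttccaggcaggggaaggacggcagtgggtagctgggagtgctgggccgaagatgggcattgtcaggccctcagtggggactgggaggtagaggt
Both marks, GC box, ZNF124: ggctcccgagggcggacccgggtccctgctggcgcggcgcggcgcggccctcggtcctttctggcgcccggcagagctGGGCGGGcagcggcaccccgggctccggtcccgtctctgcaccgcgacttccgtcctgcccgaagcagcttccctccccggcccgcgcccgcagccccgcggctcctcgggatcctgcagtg

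Most regions that were reproducible for one mark carried the other. Of the 46193 regions in both H3K23su lists, 80.5% were both-mark and 9.73% H3K23su-only, and the rest had 1 H3K27ac list. Of the 53406 regions in both H3K27ac lists, 69.6% were both-mark and 16.8% H3K27ac-only. Regions in a single list were the most frequent kind, with 53657 or 43.9% of all regions. The other ways for a region to be in 2 lists pair 1 library of each mark, and gave 1473, 1674, 1353 and 1653 regions, 6153 together. The 2 single-mark classes, 13491 regions together, were thus more numerous than these mixed pairs, in which replicates disagree for both marks. A count of single-mark regions depends on needing 2 libraries. Without H3K23su replicate 1 or 2 the H3K23su-only class grew to 16953 and 17256 regions, and without H3K27ac replicate 2 to 6973. Without H3K27ac replicate 1 or 2 the H3K27ac-only class grew to 25158 and 23593 regions.

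**Figure D1:**
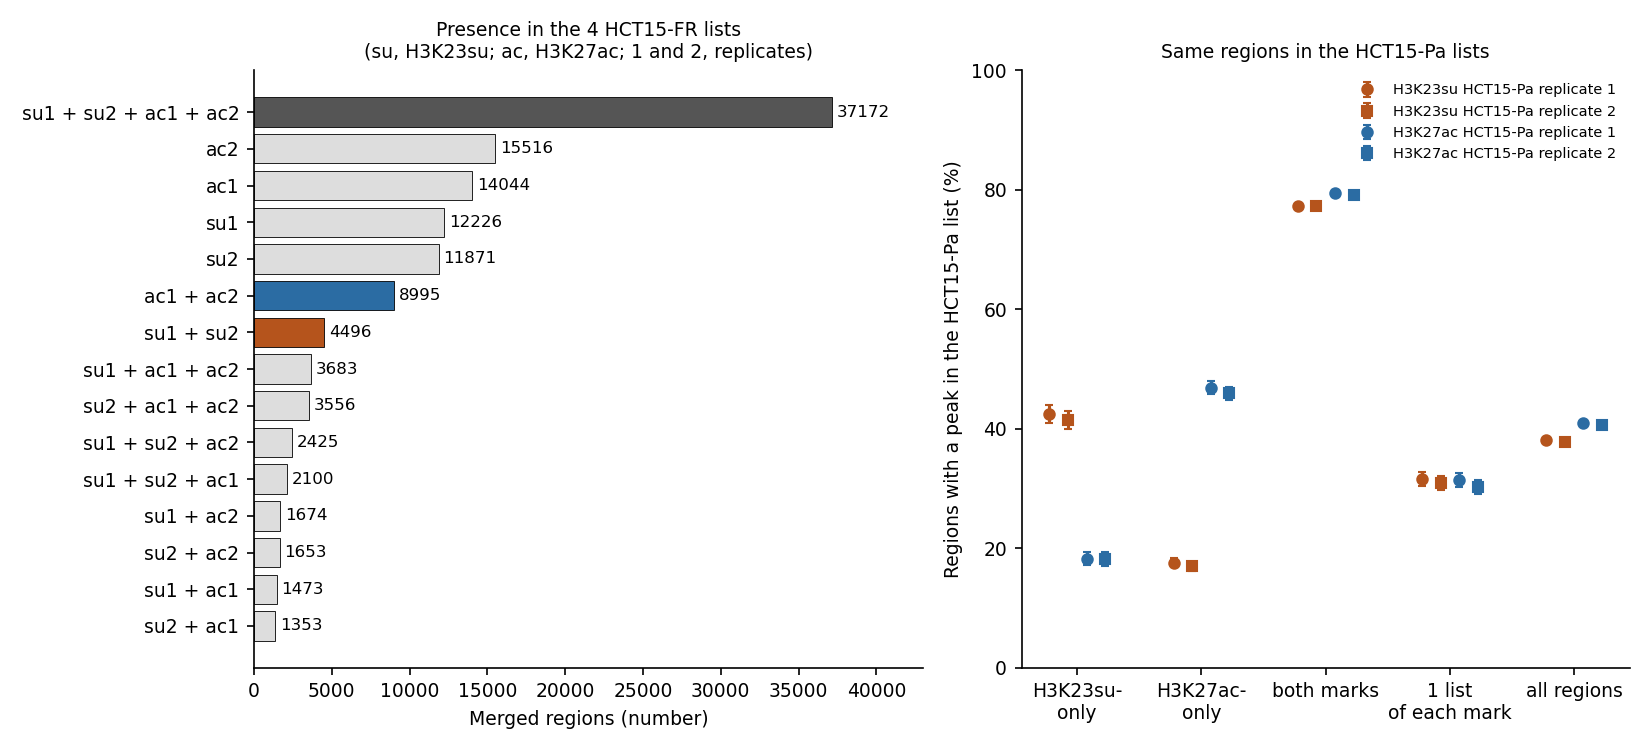
Left, number of merged HCT15-FR regions (x axis) for each of the 15 patterns of presence in the 4 lists (y axis), with the H3K23su-only class in orange, the H3K27ac-only class in blue and the both-mark class in dark grey. Right, percent of the regions of each class that had a peak in each HCT15-Pa list (circles, replicate 1; squares, replicate 2; bars, exact 95% binomial intervals). Single-mark regions were found more often in the HCT15-Pa lists of their own mark, and mixed pairs about equally often in all 4.

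Single-mark regions were weak in their own lists. Their H3K23su peaks had a median percentile of the authors' score of 31.8 and 30.3 in the 2 lists, and their H3K27ac peaks of 36.9 and 37.7. The peaks of both-mark regions had medians of 70.0 and 69.7 in the H3K23su lists and 72.8 and 73.6 in the H3K27ac lists. Both own peaks lay above percentile 75 in 19 H3K23su-only and 191 H3K27ac-only regions, and above percentile 90 in 0 and 24. When both own peaks had to lie above percentile 50, a limit chosen after the data were seen, 371 H3K23su-only and 1550 H3K27ac-only regions were left. Strong and reproducible peaks of one mark without a peak of the other were therefore few, above all for H3K23su. Whether a weak signal of the other mark was present below the threshold in these regions was not tested, since the lists hold no signal there.

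The HCT15-Pa lists were not used to choose the regions and show whether a class kept its mark in other libraries. H3K23su-only regions had a peak in 42.5% and 41.5% of cases in the HCT15-Pa H3K23su lists and in 18.3% and 18.1% in the H3K27ac lists. H3K27ac-only regions had one in 17.6% and 17.0% in the H3K23su lists and in 46.9% and 45.9% in the H3K27ac lists. Over all merged regions the shares were 38.1%, 37.8%, 41.0% and 40.7%. For each single-mark class the shares in the HCT15-Pa lists of the other mark lay below those of all regions, and the shares in the lists of the 2 marks did not overlap. The shares in the lists of the own mark were only slightly above those of all regions. Their means were 42.0% against 37.9% for H3K23su-only and 46.4% against 40.8% for H3K27ac-only regions. The difference, H3K23su minus H3K27ac, was 23.8 percentage points for H3K23su-only and −29.1 points for H3K27ac-only regions (two-sided exact permutation test of 2 libraries against 2, p = 0.333 for each, the smallest p the design allows). In the mixed pairs the shares were 31.5% and 30.9% against 31.4% and 30.2%, with a difference of 0.390 points that is within the spread of the lists (exact permutation test, p = 0.667). Without H3K23su HCT15-FR replicate 1 or 2 the H3K23su-only difference was 12.6 and 12.5 points, and without H3K27ac replicate 1 or 2 the H3K27ac-only difference was −16.0 and −16.7 points.

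In HCT15-Pa cells, the full pattern of a class recurred for a minority of its members and its opposite was rare. Of the H3K23su-only regions, 588 or 13.1% (exact 95% binomial interval, 12.1 to 14.1) were in both H3K23su and no H3K27ac list of HCT15-Pa cells, and 49 or 1.09% (0.807 to 1.44) were in the reverse pattern. Over all regions the first pattern was found in 3.11% and the second in 5.11%. Of the H3K27ac-only regions, 1730 or 19.2% (18.4 to 20.1) were in both H3K27ac lists alone, and 62 or 0.689% (0.529 to 0.883) in both H3K23su lists alone. No HCT15-Pa list held 37.9% of the H3K23su-only and 36.0% of the H3K27ac-only regions, against 9.45% of the both-mark regions, 39.2% of the mixed pairs and 39.4% of all regions, so that in this the single-mark classes lay near regions at large. All these intervals and those below are for counting error only, and regions are not replicates of a condition.

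Genomic position set the classes apart. Introns held 71.1% of the H3K23su-only regions (exact 95% binomial interval, 69.8 to 72.4), 44.8% of the H3K27ac-only regions (43.7 to 45.8), 45.7% of the both-mark regions and 59.0% of the mixed pairs, with 53.6% over all regions. Intergenic DNA held 9.36% of the H3K23su-only (8.53 to 10.3) and 30.5% of the H3K27ac-only regions (29.6 to 31.5), against 16.4% of the both-mark regions and 19.1% of all regions. Promoters, here 1 kb upstream to 100 bp downstream of the transcription start site (TSS) of any GENCODE transcript, held 8.27% (7.48 to 9.12), 11.7% (11.04 to 12.4) and 27.4% (26.96 to 27.9) of the 3 classes. H3K23su without H3K27ac was thus mostly intronic, H3K27ac without H3K23su was intergenic more often than the other classes, and promoters were mainly both-mark. The promoter difference of −3.42 points between the single-mark classes was −1.05 points without H3K27ac replicate 1, −1.99 points with promoters of 2 kb, −1.48 points with coding TSSs only and −6.26 points with the stronger 50% of each list.

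**Figure D2:**
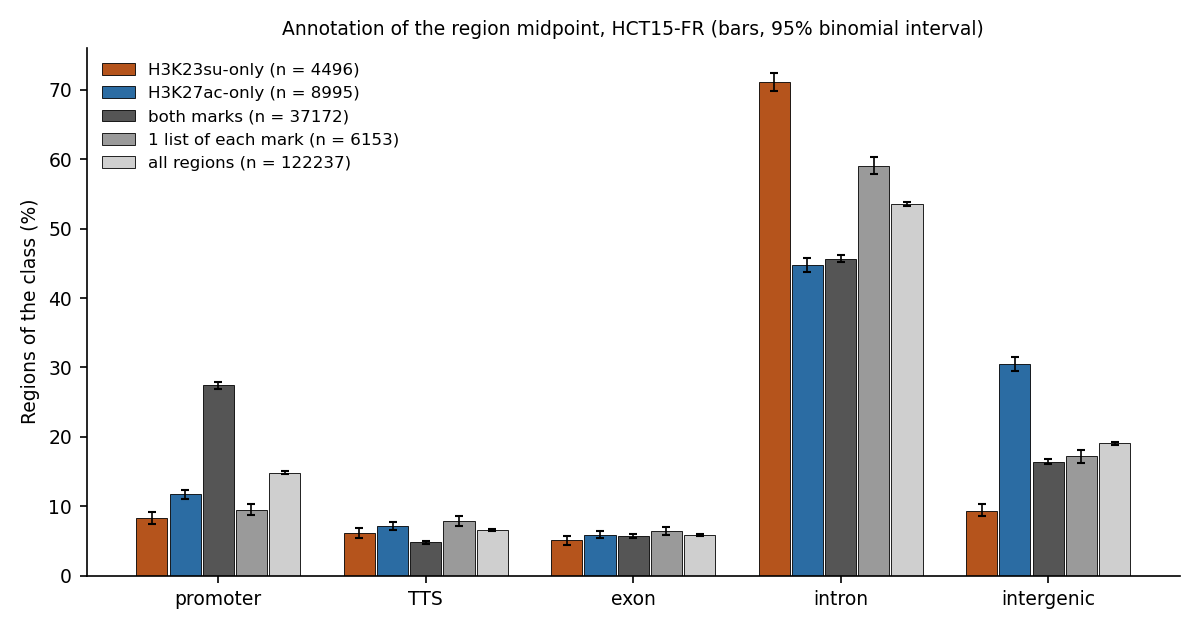
Percent of the regions of each class (y axis) by the annotation of the region midpoint (x axis; TTS, transcription termination site), with exact 95% binomial intervals as error bars. The intron bar is highest for the H3K23su-only class at 71.1%, the intergenic bar for the H3K27ac-only class at 30.5% and the promoter bar for the both-mark class at 27.4%.

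The same contrast was seen between whole lists, which include regions of every pattern. Of the H3K23su peaks, 54.0% and 53.6% were intronic, and of the H3K27ac peaks 47.2% and 47.8%. Intergenic DNA held 15.3% and 15.2% against 20.9% and 20.9%. The differences of 6.30 and −5.62 points exceed the spread between replicates (exact permutation test, p = 0.333 for each). In HCT15-Pa cells the lists differed in the same direction, with introns at 52.5% and 52.4% against 45.2% and 44.9%. The promoter share was 19.3% and 19.7% in the H3K23su lists and 20.0% and 19.5% in the H3K27ac lists, which overlap (exact permutation test, p = 0.667). It was higher in the H3K23su lists, by 1.104 points, with promoters of 2 kb in both directions, while the difference, H3K23su minus H3K27ac, was −1.23 points with the stronger 50% of each list and −1.34 points with lists of equal length. The H3K23su lists held 68365 and 67827 peaks over 40.0 and 39.4 Mb, and the H3K27ac lists 73834 and 76676 peaks over 46.3 and 46.6 Mb. The mean peak width was 583 ± 3.60 bp (SD, n = 2) and 618 ± 13.6 bp (SD, n = 2). The 3 differences, of −7159 peaks, −6.77 Mb and −34.6 bp, have no overlap between the marks (exact permutation test, p = 0.333 for each). The width difference was −88.9 bp with the stronger 50% of each list, −68.2 bp with lists of equal length and −19.1 bp with peaks merged within 500 bp.

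Regions with a single mark were shorter than both-mark regions and close to the median of 441 bp over all regions. The median width was 468.5 bp in the H3K23su-only class (95% interval of the median, 461 to 476), 479 bp in the H3K27ac-only class (473 to 485) and 412 bp in the mixed pairs, against 1096 bp in the both-mark class (1090 to 1103). Merging of 4 lists widens a region, so the width of both-mark regions follows in part from the rule. The GC content had a median of 48.9% in H3K23su-only regions (48.7 to 49.1), 54.2% in H3K27ac-only regions (53.8 to 54.5) and 54.1% in both-mark regions. H3K23su-only regions were poor in CpG, with a median observed-to-expected ratio of 0.173 against 0.240 and 0.282 in the other classes. A ratio above 0.6 at a GC content above 50%, as CpG islands have, was met by 1.20% of the H3K23su-only, 7.504% of the H3K27ac-only and 25.4% of the both-mark regions. The lower GC content of the H3K23su-only class was not stable: the difference of −5.26 points became 1.33 points with the stronger 50% of each list, −3.47 and −3.24 points without H3K23su replicate 1 or 2, and −0.918 points when both own peaks lay above percentile 50. The H3K23su lists as a whole had a median GC content of 53.0% and 52.9%, below the 54.5% and 54.4% of the H3K27ac lists, a difference of −1.45 points (exact permutation test, p = 0.333) that became 0.373 points with the stronger 50% of each list.

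All 4 lists covered the most TSSs at the TSS itself, and they differed in how far peaks reached to either side. At 250 bp upstream of the canonical TSS of protein-coding genes, 33.3% and 33.5% of TSSs were covered by a peak of the H3K23su lists and 44.1% and 43.6% by one of the H3K27ac lists. At 500 bp downstream H3K27ac was still higher, with 43.0% and 41.6% against 40.9% and 40.6%. At 750 bp downstream, the shares were 29.4% and 29.4% for H3K23su and 26.5% and 26.4% for H3K27ac. At 1000 bp downstream they were 18.3% and 18.0% against 13.9% and 14.2%. H3K27ac peaks reached further upstream and H3K23su peaks further into the gene, with no overlap between the lists of the 2 marks at any of these distances (exact permutation test, p = 0.333 for each).

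**Figure D3:**
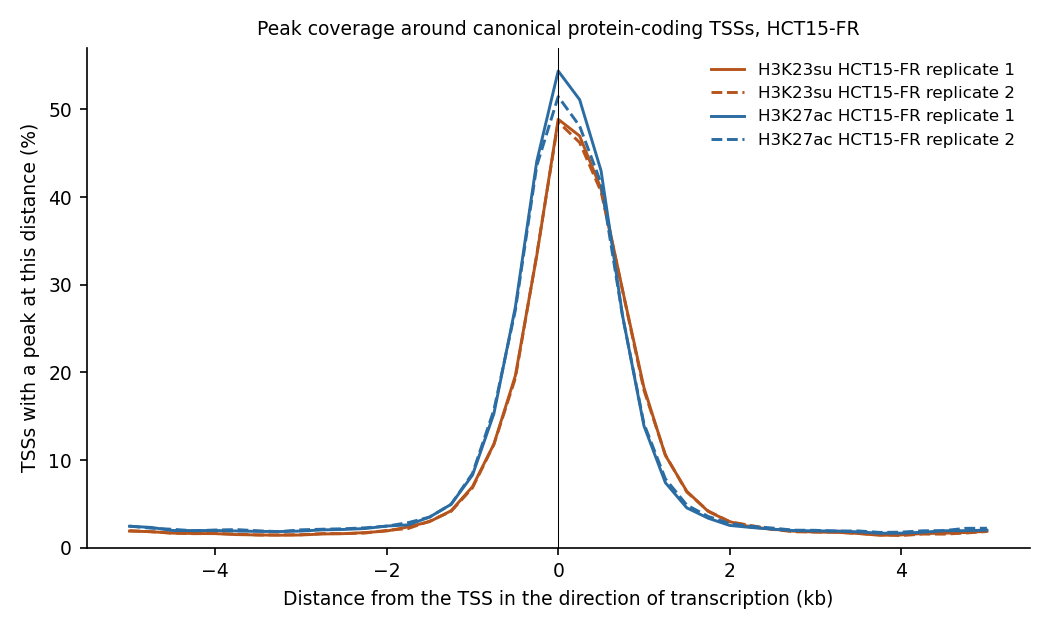
Percent of canonical protein-coding TSSs covered by a peak (y axis) against the distance from the TSS in the direction of transcription in kb (x axis), for the 4 HCT15-FR lists (solid lines, replicate 1; dashed lines, replicate 2). The H3K27ac lines are higher upstream of the TSS and at it, and the H3K23su lines are higher from 750 to 2000 bp downstream.

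Within 1 kb of any annotated TSS of the gene, 12260 of 20163 protein-coding genes, or 60.8%, had both marks. A list counts for a gene when it has a peak near any of the gene's TSSs, so the 2 marks can lie at different TSSs. Below, marks at the TSS of a gene have this meaning. H3K23su alone was found at 63 genes (0.312%), H3K27ac alone at 508 (2.52%), and no peak of either mark at 5755 (28.5%). The other 1577 genes had 1 list of at least 1 mark. At the level of gene starts, H3K23su without H3K27ac was therefore rare, and the reverse several times as frequent. These counts depend on needing 2 libraries per mark: the H3K23su-only count was 125 and 140 without H3K23su replicate 1 or 2 and 135 and 108 without H3K27ac replicate 1 or 2, and the H3K27ac-only count was 891 and 890 without H3K27ac replicate 1 or 2. In HCT15-Pa cells, 135 of the 508 H3K27ac-only genes had the same state and 0 the reverse, and 2 of the 63 H3K23su-only genes had the same state and 3 the reverse. The H3K23su-only state of a gene start thus seldom recurred in the parental line, where 15 of the 63 genes had both marks.

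Lists of housekeeping and metabolic genes had both marks more often than the 60.8% of all genes. Both marks were found at 78 of 79 cytosolic ribosomal protein genes (for example FAU, RPL10 and RPL10A), all 76 genes of oxidative phosphorylation (ATP5F1A, ATP5F1B and ATP5F1C), all 21 listed histone acyl writers and erasers (CREBBP, EP300 and HAT1), 20 of 25 succinyl-CoA and succinate enzymes (ALDH5A1, CPT1A and DLD) and 35 of 40 genes of 5-FU and pyrimidine metabolism (CAD, CMPK1 and CTPS1). No gene of the first 4 of these lists had a single mark alone. In the last, SLC22A7, which encodes an organic anion transporter, had H3K27ac alone in HCT15-FR cells and both marks in HCT15-Pa cells. No peak was found at 399 of 414 olfactory receptor genes and 16 of 25 neuronal genes, which are genes of other tissues, nor at 36 of 55 keratin genes, a list that mixes keratins of gut, skin and hair.

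Lists of transcription factor and identity genes lay closer to the 60.8% of all genes with both marks and the 28.5% with no peak, apart from the AP-1 factors. Both marks were at 17 of 18 AP-1 factor genes (ATF2, ATF3 and ATF7), 19 of 26 KLF and SP genes (KLF11, KLF12 and KLF13), 20 of 30 intestinal identity factor genes (ASCL2, CDX1 and EHF) and 19 of 25 Wnt target and stem genes (APCDD1, ASCL2 and AXIN2). H3K27ac stood alone at KLF16, at HES1, a repressor in Notch signalling that holds back secretory fate in the gut, and at 1 further identity gene. HOX genes, which set position along the body axis, had both marks at 18 of 39 genes (for example HOXA10 and HOXA13) and H3K27ac alone at HOXB6, HOXB8 and HOXC5. Of 246 zinc finger genes of chromosome 19, 153 had both marks (ZNF100, ZNF101 and ZNF121), 78 neither, and ZNF331 and ZNF610 H3K27ac alone. Of 64 replication-dependent histone genes, 43 had both marks (H1-2, H1-4 and H2AC11) and 14 neither. Epithelial cytokine and chemokine genes had both marks at 14 of 23 (CCL5, CSF1 and CSF2).

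H3K23su stood alone in 1 list only, the keratins, at KRT16 and KRT36, while 11 of the 55 had both marks, among them KRT13, KRT15 and KRT18. KRT16 is a keratin of stressed and hyperproliferating epidermis, and KRT36 a hair keratin. In HCT15-Pa cells KRT16 had no peak and KRT36 had 1 H3K23su list. H3K27ac also stood alone at the olfactory receptor genes OR2B11 and OR4F29 and at SYP, which encodes the synaptic vesicle protein synaptophysin. Of 34 genes that the study singles out, a list the study chose on these samples, 25 had both marks and 0 a single mark in both lists. Genes such as AK4, CD44, IL33 and NLRP2 had no peak within 1 kb of any annotated TSS. In the gene or within 10 kb of it, IL33 had 4 both-mark regions, and AK4, CD44 and NLRP2 had 0. FOSL2, an AP-1 subunit, had scores of 4.26 and 3.85 for H3K23su and 9.19 and 9.06 for H3K27ac. KLF6 had scores of 6.01 and 6.57 for H3K23su and 28.7 and 24.7 for H3K27ac. Near RUNX2, 4 H3K23su-only regions lay in the gene or within 10 kb of it, the most of any gene of that list. Near FOXP1 there were 4 H3K27ac-only and 3 H3K23su-only regions. Both-mark regions were more numerous at these genes, with 12 at RUNX2 and 13 at FOXP1, and the counts are not corrected for length.

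The labelled cell type was looked up in the same way. Of 12 colon epithelium markers, 10 had both marks, and CDX2 and KRT20 lacked 1 H3K23su list. Of 10 blood cell markers, 7 including PTPRC had no peak, while CD14 had both marks. Of 9 fibroblast and endothelial markers, 6 including COL3A1 and VWF had no peak, and COL1A1 and PDGFRB had both marks.

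H3K23su-only regions lay inside genes whose start carried both marks. Of the 3279 H3K23su-only regions in a protein-coding gene and over 1 kb from any coding TSS, 3091 or 94.3% (exact 95% binomial interval, 93.4 to 95.04) lay in a gene with both marks at its TSS. This was so for 2467 of 3630 H3K27ac-only regions, or 68.0% (66.4 to 69.5), for 85.7% of both-mark regions, 87.7% of mixed pairs and 84.0% of all regions. A gene with no peak at its TSS held 2.62% of the H3K23su-only and 17.0% of the H3K27ac-only regions. Along the gene, the median position from TSS to end was 42.1% for H3K23su-only and 54.8% for H3K27ac-only regions, so that the first lay nearer the start. The median length of the genes was 132 and 121 kb. The difference in share, 26.3 points, was 15.9 points with the stronger 50% of each list.

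In all, 2613 genes held at least 1 H3K23su-only and 3282 at least 1 H3K27ac-only region, and 823 held both kinds. The most H3K23su-only regions were in RPTOR, which encodes the scaffold of the growth kinase complex mTORC1, with 10 against 3 H3K27ac-only and 14 both-mark regions. RERE, a nuclear receptor coregulator, and CERS6, a ceramide synthase, had 7 each, and NLK, a kinase of the Wnt pathway, SPATA5 and CDYL, a chromodomain protein, had 6 each. All 6 had both marks at the TSS. The most H3K27ac-only regions were in CAMTA1, with 12, and PTPRN2, with 11, then in ADAMTS2, CACNA1C and KAZN, with 8 each, and CDH23, with 7. ADAMTS2, a procollagen protease of connective tissue, held 8 H3K27ac-only regions and no region of the other classes. These genes are long, from 155 kb for NLK to 1225 kb for KAZN, and the counts are not corrected for length.

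Motifs differed between the classes in a few cases. A motif here is an exact match, on either strand, within 200 bp of the region midpoint. AP-1 (TGACTCA) was found in 11.6% of the H3K23su-only regions (exact 95% binomial interval, 10.7 to 12.6), 18.6% of the H3K27ac-only regions (17.8 to 19.4), 17.9% of the both-mark regions and 14.0% of the mixed pairs, with 14.1% over all regions. The GC box (GGGCGGG) was found in 4.85%, 11.4% and 21.3% of the 3 classes, and in 11.9% of all regions. The CTCF motif was found in 0.445% (0.272 to 0.686), 5.08% (4.64 to 5.55) and 0.745% (0.660 to 0.838), and in 1.52% of all regions. HNF4 (CAAAGTCC) was the only motif with a higher share in H3K23su-only than in H3K27ac-only regions whose interval of the difference lies off 0, with 2.87% against 2.01%, 2.61% in both-mark and 2.41% in all regions. The interval of the H3K23su-only share, 2.40 to 3.40, holds the shares of both-mark and of all regions. Of 21 motifs, 9 had a higher share in H3K27ac-only regions with the interval off 0, and for 11 the interval spanned 0, among them those of the FOX, GATA, RUNX and TEAD families.

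**Figure D4:**
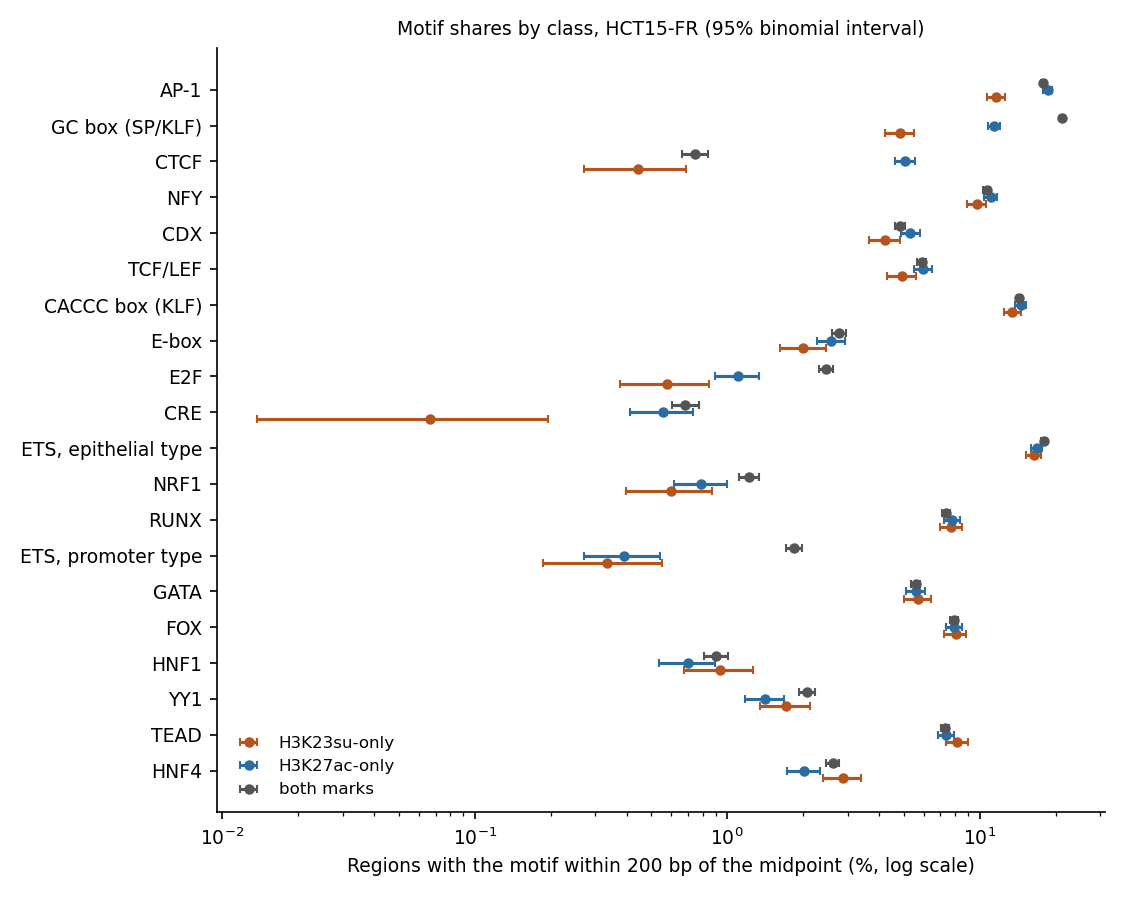
Percent of regions with an exact motif match within 200 bp of the midpoint (x axis, log scale) for 20 motifs (y axis) in the 3 classes, with exact 95% binomial intervals as bars. The CTCF share is 5.08% in H3K27ac-only regions against 0.445% and 0.745% in the others, and the GC box share is highest in both-mark regions at 21.3%.

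The CTCF motif set the H3K27ac-only class apart from the other classes by its share. The share was 11.4 times that of the H3K23su-only class, and within strata of GC content, weighted as in the both-mark class, it was 5.09% against 0.582%. Matches were centred: the 100-bp bins on either side of the midpoint had matches in 1.73% and 1.62% of the H3K27ac-only regions, and the bins 900 to 1000 bp away in 0.0778% and 0.0889%. No bin of the H3K23su-only class exceeded 0.133%. Matches were also more frequent near the midpoint in the other classes, at lower shares. In both-mark regions the same inner bins had 0.178% and 0.151%, and the farthest 0.0538% and 0.0404%. In H3K23su-only regions, on few matches, they had 0.133% and 0.0890%, and the farthest 0.0445% and 0.0667%. The 457 H3K27ac-only regions with the motif had a median width of 393 bp, against 484 bp without it, and lay in similar places, with 32.6% against 30.4% intergenic and 10.1% against 11.8% in promoters. In HCT15-Pa cells, whose lists were classed by the same rule, the motif was in 3.46% of the H3K27ac-only, 0.162% of the H3K23su-only and 0.593% of the both-mark regions. Between whole lists, the CTCF share of peaks was 0.777% and 0.814% for H3K23su against 1.80% and 1.91% for H3K27ac, a difference of −1.06 points (exact permutation test, p = 0.333). The difference between the classes, −4.64 points, was −2.85 and −2.77 points without H3K27ac replicate 1 or 2, −2.90 points with the stronger 50% of each list and −3.06 points within 100 bp of the midpoint.

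**Figure D5:**
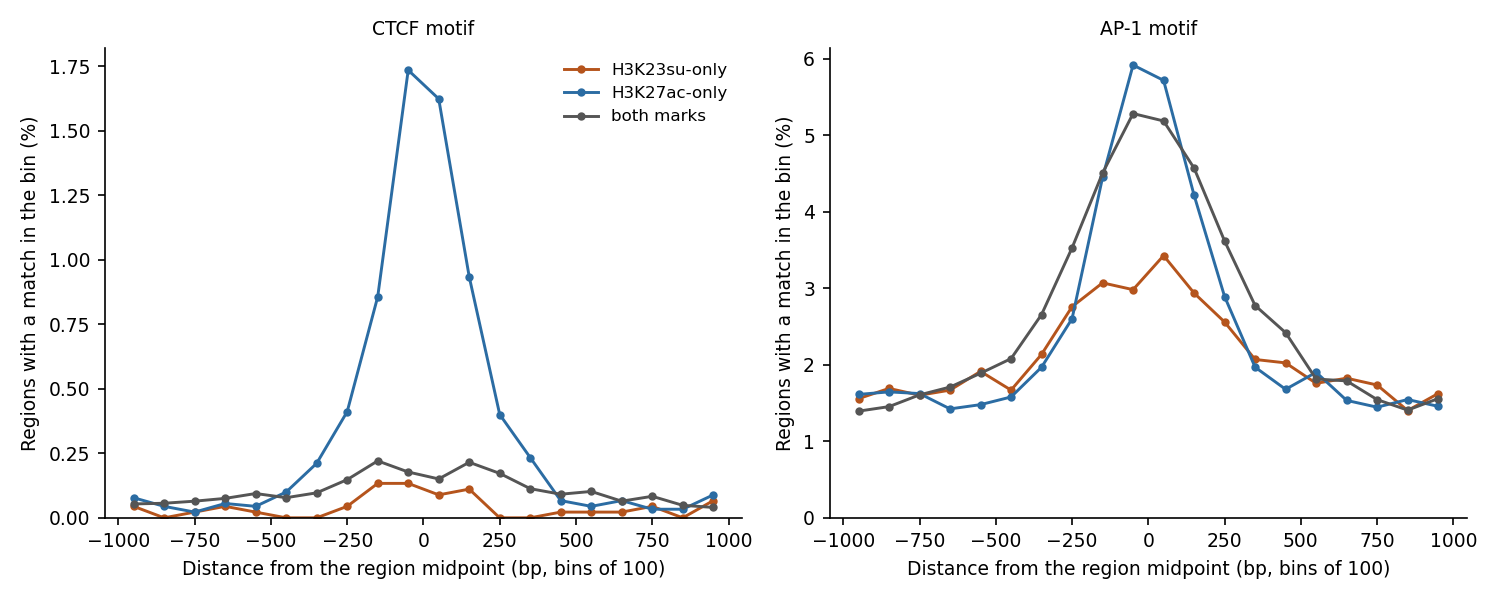
Percent of the regions of each class with a CTCF match (left) or an AP-1 match (right) in bins of 100 bp (y axis) against the distance from the region midpoint in bp (x axis). CTCF matches peak at the midpoint in the H3K27ac-only class at 1.73%. AP-1 matches peak at the midpoint in the H3K27ac-only and both-mark classes and are close to level within 200 bp of it in the H3K23su-only class.

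AP-1 matches were more frequent near the midpoint than far from it in all 3 classes. The bin before the midpoint had matches in 5.91% of the H3K27ac-only, 5.28% of the both-mark and 2.98% of the H3K23su-only regions. The farthest bin upstream had 1.61%, 1.39% and 1.56%. In the H3K23su-only class the bins within 200 bp of the midpoint were close to level, with 3.07%, 2.98%, 3.43% and 2.94%. The AP-1 share differed by −7.01 points between H3K23su-only and H3K27ac-only regions, and by strata of GC content the weighted shares were 9.54% and 16.7%. The contrast lay at lower GC content. It was 17.3% against 39.3% at 35 to 40% GC, 11.5% against 27.1% at 45 to 50% and 10.8% against 17.5% at 50 to 55%. The shares were close at 55 to 60%, with 10.6% against 11.1%, and at 60 to 65%, with 6.34% against 6.52%. The size of the class difference of −7.01 points depended on single libraries. Without H3K27ac replicate 1 or 2 it was −1.69 and −1.002 points, and without H3K23su replicate 1 or 2 −9.24 and −9.53 points. It was −12.0 points with the stronger 50% of each list and −14.8 points among regions with both own peaks above percentile 50. Between whole lists the AP-1 share was 15.4% and 15.6% for H3K23su and 17.0% and 17.1% for H3K27ac, a difference of −1.56 points (exact permutation test, p = 0.333), and 12.4% and 12.5% against 13.8% and 14.2% in HCT15-Pa cells. The CRE motif (TGACGTCA), bound by CREB and ATF factors, was in 3 of 4496 H3K23su-only regions, 0.0667% (0.0138 to 0.195), against 0.556% of H3K27ac-only and 0.683% of both-mark regions. For HNF4 the shares by strata of GC content were 2.24% and 1.83%, and for the GC box 13.2% and 16.6%, closer than without strata.

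Among the single-mark regions near gene starts, those that ranked highest by score were looked at one by one. The first H3K23su-only region within 1 kb of a coding TSS was in an intron of FLCN, which encodes the tumour suppressor folliculin (chr17:17135283-17135727), with scores of 6.34 and 6.05. It was followed by SSBP4, ZNF320, METAP1D, SLC15A4, CLASP2, GGACT and DPF2, with lower percentiles down to 69.3. Of these 8 regions, every one had an H3K23su peak in at least 1 HCT15-Pa list and 6 also had an H3K27ac peak in 1 or 2 HCT15-Pa lists, the exceptions being FLCN and ZNF320. The first H3K27ac-only region of this kind lay at the promoter of MUC3A, a membrane mucin of the intestine (chr7:100550709-100551194), with scores of 18.0 and 18.9, and 4849 bp from a gap in the assembly. It was followed by ARID5B, CARM1, TMEM259, CYTH1, HDGF, YY1 and CFAP221, with percentiles down to 87.5. All 8 had H3K27ac peaks in both HCT15-Pa lists, and MUC3A, CARM1, TMEM259, HDGF and YY1 had no H3K23su peak in either. The region named for TMEM259 lay closer to the small nuclear RNA gene RNU6-2, at 120 bp.

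Among regions over 10 kb from any TSS, the first 8 H3K23su-only regions were all intronic, in CSTPP1, DDAH1, TSC22D2, HIPK3, TMEM267, RPA3, MAGI3 and ANAPC10. The one in CSTPP1 (chr11:47093408-47093805) had scores of 6.66 and 6.39. Those in CSTPP1, TMEM267 and ANAPC10 had a peak in all 4 HCT15-Pa lists, those of H3K27ac included. DDAH1, HIPK3 and MAGI3 had H3K23su in both HCT15-Pa lists and H3K27ac in neither, and TSC22D2 and RPA3 had 1 H3K23su list alone. The first 8 H3K27ac-only regions are given by the protein-coding gene of the nearest TSS: CNTN6, SHB, VIPR2, MMEL1, FRMD4A, ISX, AREGB and TMPRSS13. Those of CNTN6, SHB, VIPR2 and ISX were intergenic, that of MMEL1 lay in an intron of TTC34, and that of AREGB in an intron of antisense RNA genes. The one nearest CNTN6 (chr3:954008-955332), whose tandem AP-1 matches are printed above, had scores of 18.7 and 16.5. CNTN6, SHB, VIPR2, MMEL1 and FRMD4A had H3K27ac in both HCT15-Pa lists and H3K23su in neither, and AREGB no peak in any HCT15-Pa list. ISX had a peak in all 4 HCT15-Pa lists, and TMPRSS13 in both H3K27ac lists and 1 H3K23su list. AP-1 was in 5 of these 8 H3K27ac-only and 2 of the 8 H3K23su-only regions. The shares were 18.6% and 11.6% over the whole classes and 14.1% over all regions. These few regions were picked by rank and do not stand for their classes. The region nearest AREGB, a copy of the gene of the growth factor amphiregulin, lay 6334 bp from an assembly gap, and only uniquely mapped reads had been kept.

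Of the 191 H3K27ac-only regions with both own peaks above percentile 75, 20 or 10.5% (exact 95% binomial interval, 6.51 to 15.7) lay within 100 kb of an assembly gap of at least 10 kb, against 3.79% of all H3K27ac-only, 1.53% of H3K23su-only and 2.37% of all regions. None of the 19 H3K23su-only regions of this strength did, which allows a share of up to 17.6%. Of these 19, 18 lay in introns and none in a promoter or between genes. Of the 191, 36.1% lay in introns, 31.4% between genes and 18.8% in promoters. The contrast in position was thus also present among the strongest members, of which the H3K23su-only class has few. The CTCF motif was not frequent there, with 2 of the 191 H3K27ac-only regions, or 1.05% (0.127 to 3.73), against 5.08% of the class. The part of sequence near gaps in the H3K27ac-only class was not tested.

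Both-mark regions were wider for H3K27ac. The median length covered by peaks within them was 751 and 741 bp in the H3K23su lists and 842 and 830 bp in the H3K27ac lists, a difference of −90 bp (exact permutation test, p = 0.333). Both H3K27ac lists covered more bases than both H3K23su lists in 33.5% of the regions, and the reverse held in 16.1%. Over the 37172 regions, the rank of a region by score correlated between the 2 H3K27ac lists with a Spearman rho of 0.872, between the 2 H3K23su lists of 0.706, and between marks of 0.591 to 0.601. These are descriptions across regions that share libraries, not tests. Of the 5 both-mark regions with the highest percentiles, 4 were intergenic. The first lay between genes near the end of chromosome 12 (chr12:133841486-133841922), with scores of 125 and 130 for H3K23su and 864 and 950 for H3K27ac. The second (chr1:121484059-121485423) lay 11 bp from an assembly gap of chromosome 1. One region each at the ends of chromosomes X and Y, near WASH6P, lay in sequence that these chromosomes share. The remaining one lay in an intron of SERINC2 (chr1:31904571-31905037).

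H3K23su-only regions lay closer to both-mark regions than H3K27ac-only regions did. The median distance to the closest both-mark region was 11674 bp for H3K23su-only, 14461 bp for H3K27ac-only and 11830 bp for mixed regions. Within 1 kb of one lay 11.3%, 5.43% and 7.48%. H3K27ac-only regions were closer to each other, with a median of 51937 bp to the next of their class against 89669.5 bp, and the class is larger. By chromosome, the H3K23su-only share of regions ran from 2.04% on chromosome 19 to 4.63% on chromosome 4 among the autosomes, and the H3K27ac-only share from 6.22% to 8.81%, the latter on chromosome 19.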

How the data were processed

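The authors aligned paired reads to hg19 with Bowtie2, kept uniquely mapped, properly paired reads without duplicates (SAMtools), and ran MACS2 on each library, with --broad for H3K27ac. The mode for H3K23su, the control and the threshold are not given in the sources used here. The deposited lists hold positions and the authors' −log10 of the peak p-value, which served here to order and select the peaks of 1 list. They hold no read depth, so its precision is unknown.

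A region was present in a list with at least 1 bp of overlap. Annotation followed the region midpoint, with TSSs of all transcripts of GENCODE 44 on GRCh37 (hg19), which gives higher promoter shares than fewer TSSs. Gene classes used peaks within 1 kb of any annotated TSS of the gene. Motif shares used exact matches, and strata of GC content spanned 5 percentage points. Lists were compared by two-sided exact permutation tests of 2 libraries against 2, and shares carry exact (Clopper-Pearson) 95% binomial intervals, combined for differences. No test was made over regions. The named regions are the 8 highest ranked single-mark regions near a coding TSS and the 8 over 10 kb from any TSS, by the lower percentile of their own peaks on autosomes and X, and the 5 highest both-mark regions. From each gene list, up to 4 single-mark and 3 both-mark genes are named in alphabetical order, and any gene that the study singles out may be named. Distal regions carry the name of the protein-coding gene of the nearest TSS. Members, lists and tests were chosen with earlier results of these data known.

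The scripts were tested on simulated data with planted classes and motifs. The alternatives, whose effect is given at the end, were other strengths, list lengths, score minimums, merging distances, overlaps, promoter and motif windows, and leaving out each library. Regions and genes of chromosome 8 are counted but not named, and 1 motif and some genes and sequences that the rules would name are not reported here. The work was done in Python 3.11.15 with scipy 1.17.1, pandas 2.3.3, numpy 2.4.6 and matplotlib 3.10.9, and sequence was read with samtools 1.23.1.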

Additional observations from a re-analysis of the deposited data

Results flagged for a closer look

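For a pair of motifs the H3K23su and H3K27ac lists differed in opposite directions in the resistant and the parental line, with every list of one mark on the same side of the other. The CDX motif (CCATAAA), bound by the intestinal factors CDX1 and CDX2, was in 4.68% and 4.78% of H3K23su peaks and 4.79% and 4.80% of H3K27ac peaks in HCT15-FR cells, a difference of −0.0694 percentage points. In HCT15-Pa cells it was in 3.96% and 4.001% against 3.81% and 3.73%, a difference of 0.207 points. The TCF/LEF motif (CTTTGAT), bound by the nuclear effectors of Wnt signalling, had 5.49% and 5.49% against 5.67% and 5.61% in HCT15-FR cells, a difference of −0.153 points, and 4.40% and 4.65% against 4.24% and 4.25% in HCT15-Pa cells, a difference of 0.279 points. In HCT15-FR cells the CDX difference was smaller than the gap between the 2 H3K23su lists. The difference between the lines was not tested, and 21 motifs were searched with 2 lists per group. For 16 of the 21 motifs the lists of the 2 marks did not overlap in HCT15-FR cells. Of these, 13 had the same direction, again without overlap, in HCT15-Pa cells.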

How the results depend on the processing

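Of 209 alternative values, 3 reversed, and the other differences kept their direction. With the stronger 50% of each list there were 2030 H3K23su-only, 4907 H3K27ac-only and 19631 both-mark regions and 104 genes with H3K23su alone, and the differences, H3K23su-only minus H3K27ac-only, were −6.26 points for promoters, 1.33 for GC content (reversed), −12.0 for AP-1, −2.90 for CTCF, 20.4 for introns and 15.9 for genes with both marks at the TSS. The median GC content of the lists then also reversed, to 0.373 points, and their promoter share reversed to 1.104 points with promoters within 2 kb. With no library left out, some other differences between lists moved by over 1.5 times. They were −3580.5 peaks, −88.9 bp of width and −1.23 points of promoters with the stronger 50%. With equal lists they were −68.2 bp and −1.34 points, and merged within 500 bp −19.1 bp and −0.436 points. With peaks covering 50% of the region there were 20879 both-mark regions, and the differences were −1.76 for GC content, −8.74 for AP-1, −3.85 for CTCF, 21.5 for introns and 18.2 for genes. With both own peaks above percentile 50, chosen after seeing the data, 371 and 1550 single-mark regions were left, with differences of −5.35 for promoters, −0.918 for GC content and −14.8 for AP-1. The promoter difference was −1.99 within 2 kb and −1.48 with coding TSSs, the GC difference −4.39 with equal lists and −6.29 with peaks merged within 500 bp, and the AP-1 difference −5.74 merged within 500 bp and −4.90 within 100 bp of the midpoint. The CTCF difference was −3.06 within 100 bp and −5.37 when the other mark was also absent from HCT15-Pa cells. CTCF, intron, gene and HCT15-Pa alternatives were added after seeing the data. The cause of these moves was not tested.

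Leaving out 1 library gave 6685 to 17256 H3K23su-only, 12571 to 25158 H3K27ac-only and 39249 to 40776 both-mark regions, and differences of −3.84 to −1.05 for promoters, −5.48 to −3.24 for GC content, −9.53 to −1.002 for AP-1, −4.17 to −2.77 for CTCF, 20.3 to 22.7 for introns and 19.6 to 21.7 for genes. The differences in presence in the HCT15-Pa lists kept their direction, at 12.5 points or more for H3K23su-only and −16.0 points or below for H3K27ac-only regions. Genes with H3K23su alone then numbered 108 to 140 and with H3K27ac alone 708 to 891. The promoter difference between lists also moved by over 1.5 times. It was −0.0833 and −0.419 points without H3K23su replicate 1 or 2, and −0.0341 and −0.469 points without H3K27ac replicate 1 or 2. Classes with 1 library of a mark are larger because presence in 1 list suffices. No label says that equal replicate numbers share cells. With the number as a replicate block, the paired differences were −7159 peaks, −6.77 Mb, −34.6 bp and −1.45 points of GC content (sign-flip, exact p = 0.5, the smallest of 2 pairs) and −0.251 points of promoters (exact p = 1), and the block changed no call. Equal list length gives no value for the peak number.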

Other observations

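Small nuclear RNA genes, whose products take part in splicing, were the closest genes of some single-mark regions, a feature singled out after its values were seen. Of the 1598 H3K27ac-only regions within 1 kb of a TSS, 25 or 1.56% (exact 95% binomial interval, 1.01 to 2.30) had a small nuclear RNA gene as the closest one. This was so for 8 of 609 H3K23su-only regions, or 1.31% (0.569 to 2.57), and for 50 of 14668 both-mark regions, or 0.341% (0.253 to 0.449), with 164 of 27704 or 0.592% over all regions. The intervals of the single-mark classes overlap. Among the H3K27ac-only regions with both own peaks above percentile 75 it was 9 of 50. Small nuclear RNA genes have many copies, and their part in the counts was not tested.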
